A study of Mus musculus with 27 samples.

Results

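Slc6a19, Atp8a2, Bhlhe40, Myb, Dapl1 and F2rl1 are 6 of the 26801 genes in a read count table of mouse T cells. They were chosen by their read counts in resting cells without Raptor, which differed from those in resting wild-type cells in at least 1 of CD4+ and CD8+ cells. Their resting values are therefore given as a description with no test. Tests of these 6 genes are given only for comparisons within stimulated cells, which that choice did not use, although earlier results of these data were known when it was made. Other genes, listed as their relatives and partners, were also tested at rest. All 6 passed a filter on low counts, each at least in part through the groups in which it is high. Slc6a19 and Atp8a2 passed it through resting groups alone, so their tests in stimulated cells are given as values and nothing is read from them.

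CD4+ and CD8+ T cells were enriched with magnetic beads from lymph node and spleen of mice of 3 genotypes, with both organs pooled. The genotypes were B6-wt (WT here), B6-Tg(Cd4-cre)1Cwi-Rptortm1.1Dmsa, with floxed Rptor and a Cre recombinase under Cd4 control (Raptor KO), and B6-Tg(Cd4-cre)1Cwi-Rictortm1.1Klg, the same Cre with floxed Rictor (Rictor KO). Both subsets of WT and Raptor KO were kept for 48 h, either in 5 ng/ml IL-7 (resting) or on wells coated with 10 µg/ml anti-CD3 and anti-CD28 (stimulated), whereas Rictor KO was sampled in 1 state, stimulated CD8+. Each of the 9 groups had 3 libraries, and live cells were sorted as negative for MFG-E8 and a dead-cell dye before RNA was isolated. Cd4-driven Cre acts in the thymus before the subsets separate, so the cells matured without the deleted gene, and the WT label names no Cre transgene. The resting cultures had IL-7 and no antibody, and the labels name no IL-7 for the stimulated ones, so a difference between them includes both.

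Library totals ran from 8640699 to 16817347 counts, of which the ribosomal RNA precursor Rn45s took 81.1% to 88.4%, and 1522199 to 2515583 counts per library belonged to other genes. Levels are given in CPM as mean ± SD of n = 3. Counts were scaled to an effective library size, the total over the 10493 genes tested without Rn45s times its TMM normalization factor. Effective sizes ran from 1121926 in a resting Raptor KO CD8+ library to 3767519 in a stimulated Rictor KO CD8+ library. Changes are log2 fold changes ± SE from 1 edgeR quasi-likelihood model of all 27 libraries, and adjusted p-values are Benjamini-Hochberg values over all genes tested. Since no label ties the 3 libraries of a group to different mice, the p-values reflect sample-to-sample spread alone, part of which may be technical. Rptor reads over the whole gene lay at 17.3 to 22.6 CPM in stimulated Raptor KO CD8+ and 18.4 to 28.9 in stimulated WT CD8+ libraries, and Rictor at 38.1 to 40.9 in Rictor KO and 36.8 to 49.7 in WT, so the groups overlapped. In resting CD4+ cells Rptor did not overlap, at 23.5 to 30.7 CPM in Raptor KO and 31.0 to 39.0 in WT. Counts over a whole gene include exons outside the deleted part and check little, so genotypes are taken from the labels. Lineage markers followed the sorting: Cd8a, Cd8b1 and Runx3 summed to 639 to 806 CPM in resting WT CD8+ libraries and 31.3 to 42.6 in resting WT CD4+ libraries. Marker sums also differed by genotype. When stimulated, these 3 summed to 273 to 302 CPM in WT CD8+ and 198 to 261 in Raptor KO CD8+ libraries. Cd4, Zbtb7b and Cd40lg summed to 220 to 245 in WT CD4+ and more, 254 to 307, in Raptor KO CD4+ libraries. A sum of 7 T cell markers was lower in stimulated Raptor KO CD4+ cells (657 to 706 in WT, 549 to 575 CPM in Raptor KO). It was also lower in both resting subsets, and overlapped in stimulated CD8+ cells. In bulk RNA such as this, fewer cells of a type and less RNA per cell cannot be told apart.

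Raptor, encoded by Rptor, is the subunit that brings substrates to the kinase mTOR in the complex mTORC1, which drives protein synthesis, nutrient uptake and cell growth when T cells are activated. Rictor defines the other mTOR complex, mTORC2, which phosphorylates Akt. Naive T cells kept alive by IL-7 are small and quiescent, and receptor stimulation raises mTORC1 activity sharply.

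The 6 genes have unrelated products. Slc6a19 encodes a sodium-coupled carrier of neutral amino acids known from gut and kidney, Atp8a2 a P4-ATPase that flips phospholipids between membrane leaflets and is best known in neurons, and F2rl1 the protease-activated receptor PAR2, a G protein-coupled receptor switched on by trypsin-like cleavage. Bhlhe40 and Myb are transcription factors, the first a basic helix-loop-helix repressor of clock genes that is induced by T cell activation, the second a regulator of blood progenitors and thymocytes. Dapl1 encodes a small protein related to death-associated protein and is used as a marker of naive CD8+ T cells.

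On GRCm38 the genes lie at chr13:73679745-73704865 (Slc6a19, ENSMUSG00000021565, minus strand), chr14:59638540-60197179 (Atp8a2, ENSMUSG00000021983, minus), chr13:95511732-95525227 (F2rl1, ENSMUSG00000021678, minus), chr6:108660629-108666925 (Bhlhe40, ENSMUSG00000030103, plus), chr10:21124935-21160984 (Myb, ENSMUSG00000019982, minus) and chr2:59484653-59505020 (Dapl1, ENSMUSG00000026989, plus). Each is annotated as protein coding, and reads were counted over the gene. Per kilobase of annotated exon, the level in the group where each gene was highest was 56.1 CPM for Dapl1, 48.4 for Bhlhe40, 32.1 for Slc6a19, 12.0 for F2rl1, 8.02 for Myb and 1.92 for Atp8a2. On that scale Dapl1 and Bhlhe40 reached the highest levels and Atp8a2 stayed the lowest. The strand setting of the counting is not given in the sources used here, and annotated genes overlap 4 of the 6. The antisense gene Slc6a19os had 86 counts over all 27 libraries, Gm26577 inside Myb 78, the pseudogene Gm9013 inside Atp8a2 15 and 0610040F04Rik at Bhlhe40 1, so reads of these pairs may be shared between them.

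Promoter windows, the 250 bases before a gene's start, were found in RefSeq on GRCm38.p6 for 3 of the 6 genes (Slc6a19, Myb and Dapl1). The windows of Dapl1 and Myb are shown because these genes stood on opposite sides of WT in stimulated Raptor KO CD8+ cells. The window of Slc6a19 belongs to a start inside the gene and is not shown. Each runs 5′ to 3′ on the gene's strand, at chr2:59484403-59484652 (plus) for Dapl1 and chr10:21160985-21161234 (minus) for Myb, and capitals mark matches to the motifs searched.
Dapl1: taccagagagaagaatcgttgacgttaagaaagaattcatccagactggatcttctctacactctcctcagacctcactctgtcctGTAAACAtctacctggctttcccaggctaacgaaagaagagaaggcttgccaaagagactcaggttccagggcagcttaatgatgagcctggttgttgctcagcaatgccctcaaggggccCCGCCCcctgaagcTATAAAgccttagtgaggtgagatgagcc
Myb: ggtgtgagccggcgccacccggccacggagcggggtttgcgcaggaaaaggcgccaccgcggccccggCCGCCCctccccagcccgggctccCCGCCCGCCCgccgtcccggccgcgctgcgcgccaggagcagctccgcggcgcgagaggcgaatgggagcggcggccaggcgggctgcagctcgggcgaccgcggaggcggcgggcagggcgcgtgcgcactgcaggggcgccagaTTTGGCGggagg
Motifs were searched on both strands and picked with the sequences in view: CACGTG (the E box bound by factors such as Bhlhe40), GTAAACA (the forkhead core), TATAAA (the TATA box), GGGCGG (the GC box) and TTTGGCG (an E2F-type site). The Dapl1 window had GTAAACA starting 164 bases before the gene's start, GGGCGG on the other strand at 43 bases and TATAAA at 29 bases. Of 32817 windows of this length, 3.16% held GTAAACA, 12.4% TATAAA and 32.7% GGGCGG. The Myb window had GGGCGG on the other strand at 182, 158 and 154 bases, the last 2 of which share bases, and TTTGGCG at 12 bases, a motif in 1.26% of windows. CACGTG, found in 6.02% of windows, was in none of the 3. The Myb window had a GC content of 81.2%, above 99.1% of windows, and that of the Dapl1 window lay under the median of 52.4%. These matches are letters in a window and not measured sites.

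The plot of levels by group shows the pattern of each gene over all 27 libraries. At rest, the libraries of Raptor KO and WT did not overlap for 5 of the 6 genes in CD4+ cells, where 12.3% of all genes tested did not overlap, and for 6 of 6 in CD8+ cells, where 14.2% did not. Those libraries chose the genes, so nothing is read from these counts. In stimulated cells, 1 of 6 passed the test in CD4+ cells (17.4% of all genes tested did) and 3 of 6 in CD8+ cells (11.7% did). Myb was higher in Raptor KO of both subsets, and Dapl1 and F2rl1 were lower in Raptor KO CD8+ cells.

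**Figure D1:**
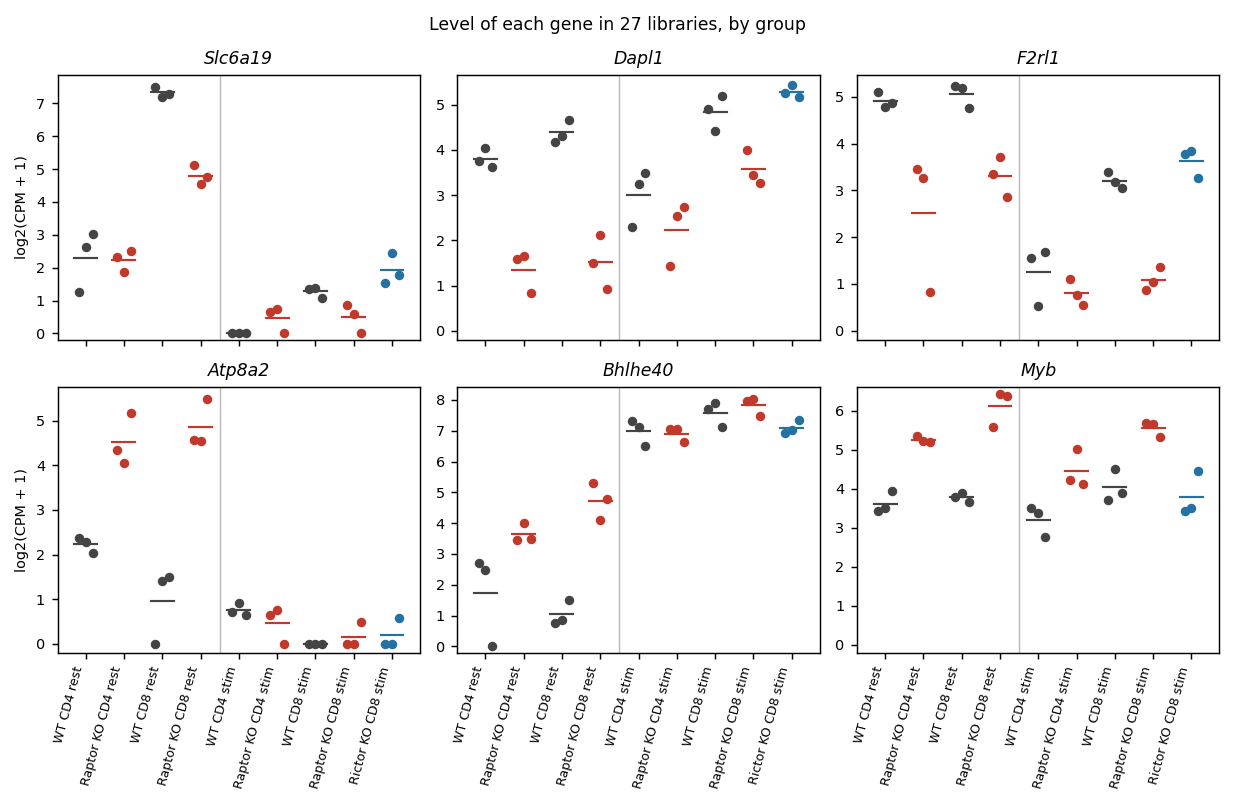
Level of each gene in every library, as log2(CPM + 1) on the vertical axis, by group on the horizontal axis (grey WT, red Raptor KO, blue Rictor KO; the line in each group is the mean of its 3 libraries, and the vertical line separates resting from stimulated groups). Slc6a19 stands highest in resting WT CD8+ cells, Atp8a2 in both resting Raptor KO groups, and Bhlhe40 in all stimulated groups.

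Among the surface proteins, Slc6a19 was a gene of resting CD8+ cells that had almost disappeared after stimulation. Resting WT CD8+ libraries measured 146, 156 and 180 CPM (161 ± 17.6), and Raptor KO ones 22.3, 25.8 and 33.6 (27.2 ± 5.75), a log2 difference of -2.55 ± 0.21. Every Raptor KO library lay far below every WT library, and both groups lay above all others. In resting CD4+ cells the values were 1.39, 5.16 and 7.19 CPM in WT and 2.67, 4.01 and 4.69 in Raptor KO, a log2 difference of -0.39 ± 0.47. These groups overlapped, and the sign of that difference turned to 0.14 without WT replicate 3. The log2 difference between CD8+ and CD4+ cells at rest was 5.04 ± 0.27 in WT and 2.88 ± 0.35 in Raptor KO. The overlapping antisense gene Slc6a19os measured 8.31 ± 2.45 CPM in resting WT CD8+ and 6.58 ± 4.68 in resting Raptor KO CD8+ cells, values that overlapped and were small beside those of Slc6a19 in WT. They were larger beside Slc6a19 in Raptor KO, with 17, 2 and 9 antisense counts against 55, 33 and 29 in replicates 1 to 3.

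Stimulated cells held few Slc6a19 reads. There were 0 counts over the 3 WT CD4+ libraries, 2 over those of Raptor KO CD4+, 11 over WT CD8+, 2 over Raptor KO CD8+ and 28 over Rictor KO CD8+. Against rest, the WT CD4+ level was at least 12.0-fold lower, taking 3 counts over the group as the floor for 0 counts, and the WT CD8+ level differed by -6.79 ± 0.30 on the log2 scale. In stimulated CD8+ cells the libraries measured 1.13, 1.58 and 1.61 CPM in WT, 0, 0.523 and 0.837 in Raptor KO, and 1.90, 2.41 and 4.51 in Rictor KO. The 3 genotypes did not overlap, in the order Rictor KO, WT, Raptor KO. The difference of Raptor KO from WT (-1.80 ± 0.89, adjusted p = 0.197) and that of Rictor KO from WT (1.12 ± 0.50, adjusted p = 0.731) did not pass the test. Rictor KO exceeded Raptor KO by 2.91 ± 0.75 (adjusted p = 0.00542), a call that was lost without Raptor KO replicate 3 (2.16, adjusted p = 0.0776) or Rictor KO replicate 2 (2.38, adjusted p = 0.071). With 2 counts in Raptor KO, the counting interval of that ratio runs from 2.22 to 76.3. Slc6a19 passed the filter on low counts through resting libraries alone, so nothing is read from this call.

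Atp8a2 had the reverse pattern at rest and a similar loss with stimulation. Resting Raptor KO CD4+ libraries measured 15.5, 19.4 and 35.2 CPM against 3.08, 3.87 and 4.17 in WT, a log2 difference of 2.63 ± 0.45. Resting Raptor KO CD8+ libraries measured 22.3, 22.6 and 43.7 CPM against 0, 1.64 and 1.83 in WT, a difference of 4.56 ± 0.55. Raptor KO stood above WT in both subsets, and the 2 Raptor KO groups overlapped with each other. In WT at rest, CD4+ libraries lay above CD8+ libraries, without overlap. Stimulated libraries held 0 to 2 counts each, 5 counts over WT CD4+, 2 over Raptor KO CD4+, 0 over WT CD8+, 1 over Raptor KO CD8+ and 1 over Rictor KO CD8+. From 119 counts over resting Raptor KO CD8+ cells to 1 over stimulated ones, the ratio of scaled counts has an interval from 0.000158 to 0.0358. At this depth no difference between stimulated genotypes was detectable, and the counting interval of the Raptor KO to WT ratio in CD4+ cells ran from 0.0531 to 3.41.

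F2rl1 was lower in Raptor KO at rest in both subsets and, among stimulated cells, in CD8+ cells. Resting libraries measured 26.5, 28.2 and 33.4 CPM in WT CD4+, 26.2, 35.3 and 36.9 in WT CD8+, 0.782, 8.56 and 10.0 in Raptor KO CD4+, and 6.24, 9.15 and 12.2 in Raptor KO CD8+. The log2 differences were -2.10 ± 0.34 and -1.79 ± 0.33, and no Raptor KO library reached the lowest WT library. WT ranges of the subsets overlapped at rest, where the log2 difference was 0.16 ± 0.28, which turned to -0.26 with Rn45s kept in the totals. That setting, here and below, scaled counts to the full library totals and used no TMM factors.

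After stimulation the F2rl1 level was lower than at rest, by -4.14 ± 0.40 on the log2 scale in WT CD4+ and -1.98 ± 0.31 in WT CD8+ cells. Stimulated WT CD8+ libraries kept 7.35, 8.03 and 9.46 CPM, and Raptor KO CD8+ libraries 0.837, 1.05 and 1.57. The log2 difference of -2.68 ± 0.51 passed the test (adjusted p = 0.000295), and it passed under all 16 alternative settings run for this comparison, with adjusted p up to 0.0204. In CD4+ cells WT measured 0.446, 1.95 and 2.20 CPM and Raptor KO 0.472, 0.689 and 1.14, and the difference of -1.03 ± 0.78 did not pass (adjusted p = 0.388). These rest on 12 and 4 counts, and the 95% interval of the difference runs from -2.56 to 0.50.

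The 2 transcription factors had different patterns over the groups. Whether the Raptor effect changed with stimulation was not tested for either, and their resting values served to choose them. Bhlhe40 at rest measured 0, 4.52 and 5.57 CPM in WT CD4+ libraries and 10.0, 10.2 and 15.0 in Raptor KO, a log2 difference of 1.93 ± 0.62. In resting CD8+ cells it measured 0.709, 0.821 and 1.83 CPM in WT against 16.2, 26.7 and 38.4 in Raptor KO, a difference of 4.47 ± 0.69. Raptor KO stood above WT in both subsets, and in Raptor KO the CD8+ libraries stood above the CD4+ ones. WT CD8+ libraries held 1 to 3 counts each, and without the libraries of code StP212 the CD8+ difference was 3.85. Leaving out single libraries gave 1.25 to 2.52 in CD4+ and 4.10 to 5.05 in CD8+ cells.

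Stimulation put Bhlhe40 far above rest in every group, by 5.34 ± 0.48 in WT CD4+, 7.29 ± 0.56 in WT CD8+, 3.32 ± 0.40 in Raptor KO CD4+ and 3.05 ± 0.36 in Raptor KO CD8+ cells. Stimulated libraries measured 89.7, 138 and 158 CPM in WT CD4+, 98.2, 131 and 131 in Raptor KO CD4+, 138, 208 and 237 in WT CD8+, 178, 248 and 258 in Raptor KO CD8+, and 119, 129 and 162 in Rictor KO CD8+. WT and Raptor KO overlapped in both subsets. The differences of -0.09 ± 0.31 in CD4+ (adjusted p = 0.878, 95% interval -0.70 to 0.52) and 0.23 ± 0.30 in CD8+ cells (adjusted p = 0.678, -0.36 to 0.82) did not pass. Their signs were not stable: the first was 0.05 without WT CD4+ replicate 1, and the second -0.27 with Rn45s kept in the totals. Rictor KO libraries all lay below the Raptor KO ones, at -0.74 ± 0.30, which did not pass (adjusted p = 0.114). The same difference was called by limma-voom (adjusted p = 0.0485), in a fit of the compared groups only (0.00298) and with no filter on low counts (0.0152).

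Myb was the 1 gene that stood above WT in Raptor KO in all 4 settings. At rest it measured 9.74, 10.3 and 14.4 CPM in WT CD4+ and 36.0, 36.4 and 40.1 in Raptor KO CD4+ libraries, a log2 difference of 1.68 ± 0.31. In resting CD8+ cells it measured 11.6, 12.8 and 14.0 CPM in WT and 47.0, 82.9 and 85.1 in Raptor KO, a difference of 2.48 ± 0.29. WT ranges of both subsets overlapped, and in Raptor KO the CD8+ libraries stood above the CD4+ ones. In stimulated CD4+ cells the values were 5.78, 9.36 and 10.4 CPM in WT and 16.5, 17.7 and 31.7 in Raptor KO, a log2 difference of 1.41 ± 0.33 (adjusted p = 0.00251). In stimulated CD8+ cells they were 12.2, 13.9 and 21.9 CPM in WT and 39.6, 49.7 and 51.1 in Raptor KO, a difference of 1.57 ± 0.26 (adjusted p = 7.79e-05). Raptor KO did not overlap WT in either subset.

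The Myb calls depend on the scaling. With Rn45s kept in the library totals and no TMM factors, the median over all genes shifted by -0.50 (stimulated CD4+) and -0.52 (stimulated CD8+). Myb then stood at 0.90 (adjusted p = 0.174) and 1.05 (adjusted p = 0.108), still above that median and no longer past the threshold. Against a minimum fold change of 1.5 the CD4+ call was also lost (adjusted p = 0.0687). Between rest and stimulation Myb had log2 differences of -0.54 ± 0.37 in WT CD4+ and 0.29 ± 0.33 in WT CD8+ cells, where resting and stimulated libraries overlapped. The antisense gene Gm26577 measured 4.03 ± 0.947 CPM in stimulated Raptor KO CD8+ and 0.892 ± 0.668 in WT CD8+ cells, so it stood in the same order as Myb at a much lower level. Of 5 markers of thymocytes, in which Myb is active, 3 were in the table. They summed to 14.8 to 17.7 CPM in resting WT CD8+ and 7.13 to 18.2 in resting Raptor KO CD8+ libraries, which overlapped, with Ptcra at 0 in both.

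Dapl1 was lower in Raptor KO than in WT at rest in both subsets and, among stimulated cells, in CD8+ cells. Resting libraries measured 11.3, 12.5 and 15.5 CPM in WT CD4+ against 0.782, 2.00 and 2.14 in Raptor KO, a log2 difference of -2.88 ± 0.47. In CD8+ cells they measured 17.0, 18.9 and 24.4 CPM in WT against 0.891, 1.83 and 3.38 in Raptor KO, a difference of -3.22 ± 0.43. No Raptor KO library came near the WT range, and these Raptor KO libraries held 1 to 5 counts each. Stimulated WT CD8+ libraries measured 20.3, 28.8 and 35.4 CPM and Raptor KO ones 8.63, 9.93 and 15.1, a log2 difference of -1.43 ± 0.27 (adjusted p = 0.000247). These groups did not overlap, and the call held under all 16 alternative settings run for this comparison, with adjusted p up to 0.0205.

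In stimulated CD4+ cells Dapl1 measured 3.89, 8.47 and 10.2 CPM in WT and 1.71, 4.83 and 5.67 in Raptor KO, which overlapped. The log2 difference of -0.97 ± 0.39 did not pass (adjusted p = 0.0765). It did pass without WT replicate 1 (-1.22, adjusted p = 0.0245) and with Rn45s kept in the totals (-1.51, adjusted p = 0.0474). Between rest and stimulation the level in Raptor KO CD8+ cells differed by 2.30 ± 0.47, with no overlap, while in WT CD8+ cells the difference of 0.50 ± 0.25 came with overlapping libraries. In Raptor KO CD8+ cells the resting and stimulated libraries did not overlap for 58.2% of all genes tested.

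**Figure D2:**
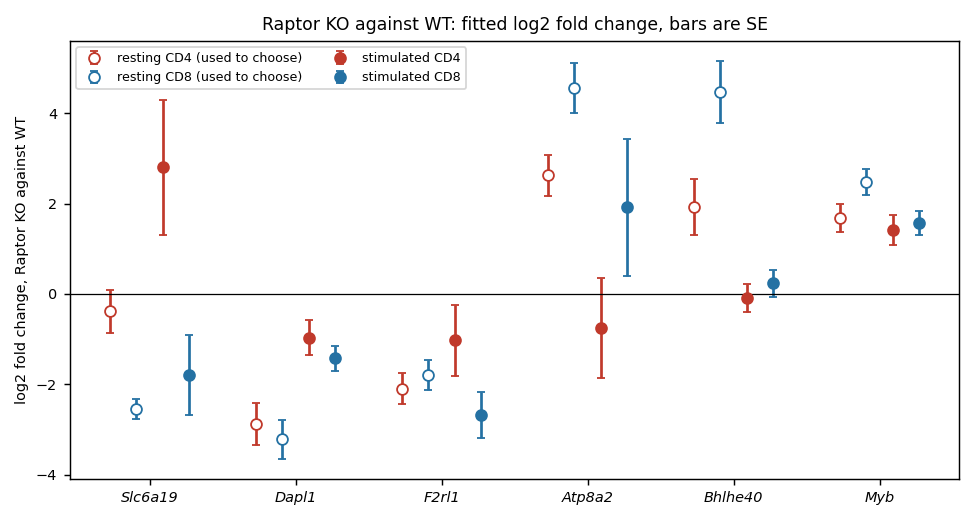
Fitted log2 fold change of Raptor KO against WT (vertical axis) for each gene, with bars of 1 SE, in resting cells (open circles, the values that chose the genes) and stimulated cells (filled circles), red for CD4+ and blue for CD8+. Myb lies above 0 in all 4 comparisons and Dapl1 and F2rl1 below 0 in all 4, while Bhlhe40 is near 0 in stimulated cells and the long bars of Slc6a19 and Atp8a2 there come with 0 to 11 counts a group.

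Whether the Raptor effect differed between the stimulated subsets was tested as an interaction. By edgeR 0 of the 6 genes passed (0.334% of all genes tested did), 1 had an unadjusted p under 0.05, and DESeq2 and limma-voom also called 0. The gene under 0.05 was Slc6a19, at -4.60 ± 1.84 for CD8+ minus CD4+ (adjusted p = 0.399), where the WT CD4+ group has 0 counts. For F2rl1 the difference of effects was -1.65 ± 1.11 (95% interval -3.82 to 0.52), so the CD8+ call and the missing CD4+ call are not shown to differ. For Myb it was 0.16 ± 0.44 (-0.70 to 1.01) and for Dapl1 -0.46 ± 0.50 (-1.44 to 0.51).

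Summed markers of other cells and RNA composition moved with some of these contrasts. In the marker shifts of resting CD8+ cells and in the myeloid shift below, 1 gene made up most of the change. The single markers given here were named after their values were seen. In resting CD8+ cells, 5 markers of NK and gamma-delta T cells summed to 49.4 to 56.0 CPM in WT (Klre1 and Sox13 at 0) and 4.46 to 31.1 in Raptor KO (Klre1 at 0), of which Klrd1 alone had 52.1 ± 3.48 and 19.0 ± 12.6 CPM. There, 5 regulatory T cell markers summed to 24.8 to 40.3 CPM in WT and 48.7 to 62.8 in Raptor KO. Of these, Ikzf2 measured 11.0 ± 2.85 CPM in WT and 44.4 ± 6.16 in Raptor KO, while Foxp3 (3.29 ± 2.45 and 3.09 ± 2.09), Ctla4, Tnfrsf18 and Nrp1 were not higher in Raptor KO on average. These 5 also summed to 152 to 165 CPM in stimulated WT CD4+ and 169 to 199 in Raptor KO CD4+ libraries. Ikzf2 was higher there (26.9 ± 10.8 and 68.5 ± 10.6) and Ctla4 lower (73.0 ± 14.4 and 30.8 ± 2.88). Foxp3, Tnfrsf18 and Nrp1 were higher there on average. The sums overlapped in stimulated CD8+ cells, where Ikzf2 (31.7 ± 11.1 and 132 ± 7.19) was also higher and Ctla4 (104 ± 21.2 and 27.1 ± 9.22) lower. In stimulated CD4+ cells, 9 myeloid markers summed to 14.3 to 19.0 CPM in WT (Lyz2, Itgam, Adgre1, S100a8 and S100a9 at 0) and 35.3 to 43.5 in Raptor KO (Cd14, Itgam, Adgre1, S100a8 and S100a9 at 0), and Ctss alone had 13.7 ± 3.17 and 34.5 ± 4.13 CPM. Protein-coding genes made up 49.9% to 62.5% of counts other than Rn45s in stimulated WT CD8+ libraries and 31.8% to 47.8% in Raptor KO ones. The part of these shifts in the values of the 6 genes was not tested. Sums for 5 B cell markers overlapped between Raptor KO and WT in all 4 settings. Sums for 9 memory and effector markers also overlapped, but single members differed: in resting CD8+ cells Ly6c2 measured 27.8 ± 2.18 CPM in WT and 75.6 ± 10.9 in Raptor KO, Tbx21 3.26 ± 0.914 and 11.2 ± 4.21, and Eomes 14.5 ± 3.30 and 4.01 ± 1.24. In stimulated CD8+ cells Cd44 measured 143 ± 13.5 CPM in WT and 249 ± 55.6 in Raptor KO.

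Rictor loss was compared with WT and with Raptor loss in stimulated CD8+ cells. Against WT, 0 of the 6 genes passed by edgeR (0.162% of all genes tested did), 1 had an unadjusted p under 0.05 (Slc6a19, above), and DESeq2 and limma-voom called 0. Rictor KO libraries measured 34.7, 37.4 and 42.2 CPM for Dapl1, 8.67, 12.7 and 13.3 for F2rl1, and 9.83, 10.4 and 21.2 for Myb. All 3 ranges overlapped those of WT. Every Rictor KO library carries the library code StP219, as does 1 WT library, so this comparison is partly confounded with that code. For F2rl1 that WT library (7.35 CPM) lay below every Rictor KO library. For Dapl1 (35.4 CPM) and Myb (13.9 CPM) it lay within the Rictor KO range. The log2 differences were 0.41 ± 0.22 for Dapl1 (95% interval -0.01 to 0.84), 0.51 ± 0.31 for F2rl1 (-0.10 to 1.13) and -0.25 ± 0.29 for Myb (-0.81 to 0.32), so the intervals leave out changes as large as those seen in Raptor KO.

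Against Raptor KO, whose libraries also enter the comparison with WT, 4 of the 6 genes passed (15.3% of all genes tested did). Slc6a19 is among them, and nothing is read from its call, since it passed the filter through resting libraries alone. Besides Slc6a19, Dapl1 was higher in Rictor KO by 1.84 ± 0.26 (adjusted p = 1.82e-06) and F2rl1 by 3.19 ± 0.48 (adjusted p = 4.9e-06), and Myb was lower by a log2 change of -1.82 ± 0.26 (adjusted p = 7.4e-06). None of these 3 genes overlapped between the genotypes (33.8% of all genes tested did not), and each call held under all 17 alternative settings run for this comparison. All 3 Rictor KO libraries carry the library code StP219, which 1 Raptor KO library shares. The setting restricted to that code is among the 17.

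**Figure D3:**
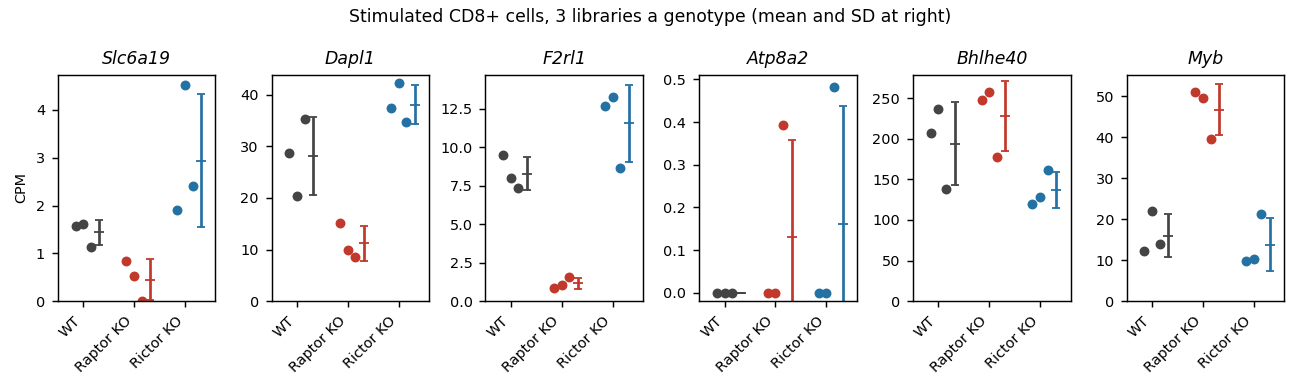
CPM of each gene in the 3 libraries of each genotype in stimulated CD8+ cells (points), with mean and SD at their right (lower bars of Atp8a2 end at the axis), each panel on its own linear axis. Rictor KO libraries lie with or above WT for Dapl1 and F2rl1 and with WT for Myb, and Raptor KO libraries lie apart from both for these 3 genes.

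The subsets were compared within each stimulated genotype. In WT, 3 of 6 genes passed (5.18% of all genes tested did): Dapl1 was higher in CD8+ than CD4+ cells by 1.82 ± 0.27 (adjusted p = 5.38e-06), F2rl1 by 2.32 ± 0.45 (adjusted p = 0.000501), and Slc6a19 was at least 3.43-fold higher (adjusted p = 0.0148). The Slc6a19 call, on 11 counts against 0, was lost without WT CD4+ replicate 3 (adjusted p = 0.0965). That gene passed the filter through resting libraries alone, so nothing is read from its call. In Raptor KO, 2 of 6 passed by edgeR (5.36% of all genes tested did): Myb was higher in CD8+ cells by 1.11 ± 0.26 (adjusted p = 0.00726) and Dapl1 by 1.36 ± 0.38 (adjusted p = 0.0249). Both depend on single libraries. The Myb call was lost without Raptor KO CD4+ replicate 1 (adjusted p = 0.0631) or 3 (adjusted p = 0.0689). The Dapl1 call was lost without Raptor KO CD4+ replicate 1 (adjusted p = 0.218) or 2 (adjusted p = 0.0508), or Raptor KO CD8+ replicate 1 (adjusted p = 0.122) or 2 (adjusted p = 0.0536). Bhlhe40 in Raptor KO, with no overlap between the subsets, did not pass (0.92 ± 0.31, adjusted p = 0.104), but was called by DESeq2 (adjusted p = 0.0167), in a fit of the compared groups only (0.00215) and with no filter on low counts (0.000124). Myb in WT stood in the same order without passing (0.95 ± 0.32, adjusted p = 0.0926), and was called with no filter on low counts (0.0132).

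Ordered by level over the 9 groups, few neighbours were separate. For Slc6a19 the ranges of the first 3 ranks, resting WT CD8+, resting Raptor KO CD8+ and resting WT CD4+, were separate from each other. For Atp8a2 the 2 resting Raptor KO groups came first and were separate from resting WT CD4+, which was separate from resting WT CD8+. For Bhlhe40 the 5 stimulated groups came first without gaps between neighbours, followed by separate ranges for resting Raptor KO CD8+ and resting Raptor KO CD4+. Myb had resting Raptor KO CD8+, stimulated Raptor KO CD8+ and resting Raptor KO CD4+ at the top, and 1 gap, below these 3. Dapl1 was highest in stimulated Rictor KO, WT stimulated and WT resting CD8+ cells, whose neighbouring ranges overlapped, with 1 gap below them. F2rl1 had its 1 gap below the 2 resting WT groups.

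For each gene, a list of relatives and partners was measured with the gene itself left out. The counts are edgeR calls, to be read beside the shares over all genes tested, 17.4% in stimulated CD4+ and 11.7% in stimulated CD8+ cells. Of 22 neutral amino acid carriers and partners listed beside Slc6a19, 10 were tested. In stimulated Raptor KO 8 fell in CD4+ and 7 in CD8+ cells and 0 rose, with a median log2 change of -1.11 and -0.78 against 0.04 and 0.03 over all genes. Leaving out single libraries gave 6 to 7 and 5 to 6 calls. Slc6a9, a glycine transporter, fell from 6.39 ± 0.550 to 0.347 ± 0.305 CPM in CD4+ cells (-3.89 ± 0.70, adjusted p = 0.000135) and by a log2 change of -3.70 ± 0.54 in CD8+ cells (adjusted p = 6.06e-06). Slc1a4, a carrier of alanine, serine and cysteine, changed by -2.49 ± 0.44 (adjusted p = 9.02e-05) and -2.82 ± 0.35 (adjusted p = 1.57e-07). At rest, in CD4+ cells, edgeR, DESeq2 and limma-voom called 0 of the 10 (2 at an unadjusted p under 0.05), where edgeR called 0.143% of all genes. In resting CD8+ cells, where it called 1.12% of all genes, Slc3a2, the heavy chain shared by several amino acid exchangers, rose by 0.95 ± 0.17 (adjusted p = 0.000852). The Slc3a2 call was lost without the libraries of code StP212 (adjusted p = 0.106).

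Of 20 flippase and scramblase genes listed beside Atp8a2, 14 were tested, and at rest edgeR, DESeq2 and limma-voom called 0 in either subset (3 at an unadjusted p under 0.05 in CD4+ and 2 in CD8+ cells). In stimulated Raptor KO 3 rose and 1 fell in CD4+ cells and 2 rose in CD8+ cells. The gene that fell was the scramblase family member Plscr1 (-0.67 ± 0.24, adjusted p = 0.0421). Atp11a, another P4-ATPase, changed by 1.17 ± 0.20 in CD8+ cells (adjusted p = 4.47e-05). Its CD4+ change of 0.61 ± 0.19 (adjusted p = 0.02) was lost in DESeq2 (adjusted p = 0.0773). The CD4+ count of 4 was also 4 in limma-voom, but 1 in DESeq2 and 0 to 2 on leaving out any 1 library. With 2 of 14, the CD8+ share was near that over all genes. Atp9b rose by 0.59 ± 0.16 in CD8+ cells (adjusted p = 0.01), a call lost without WT replicate 1 (adjusted p = 0.0558) or Raptor KO replicate 2 (adjusted p = 0.0614).

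Of 18 clock genes listed beside Bhlhe40, 14 were tested, and at rest the 3 tools called 0 in either subset (1 at an unadjusted p under 0.05 in each). In stimulated Raptor KO 2 rose and 2 fell in CD4+ cells and 2 rose in CD8+ cells, the latter near the share over all genes. The CD4+ count of 4 was 3 in DESeq2, 2 in limma-voom and 2 to 3 on leaving out single libraries, and the CD8+ count was 1 in DESeq2. Nr1d2, a nuclear receptor of the clock, rose from 3.98 ± 0.445 to 11.0 ± 4.17 CPM in CD4+ cells (1.52 ± 0.31, adjusted p = 0.000573), and Clock from 9.16 ± 1.81 to 18.7 ± 2.83 in CD8+ cells (1.03 ± 0.24, adjusted p = 0.00281). Ciart, a circadian repressor, fell by -2.39 ± 0.65 in CD4+ cells (adjusted p = 0.00863). Of the 14 partners of Myb, all tested, E2f4 fell by -0.83 ± 0.18 in CD4+ cells (adjusted p = 0.000921) and Tfdp2, a dimer partner of E2F factors, rose by 1.19 ± 0.27 in CD8+ cells (adjusted p = 0.00206). Without the libraries of code StP212 the calls of Ciart (adjusted p = 0.138) and E2f4 (adjusted p = 0.0563) were lost. Counts for the Myb list were 2 higher and 1 lower in CD4+ and 1 higher in CD8+ stimulated cells, and 0 at rest by all 3 tools (2 and 1 at an unadjusted p under 0.05). The CD4+ count of 3 was 1 in DESeq2 and 4 in limma-voom, the CD8+ count 2 in limma-voom, and both were 1 to 3 on leaving out single libraries. With 1 of 14, the CD8+ share was below that over all genes.

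**Figure D4:**
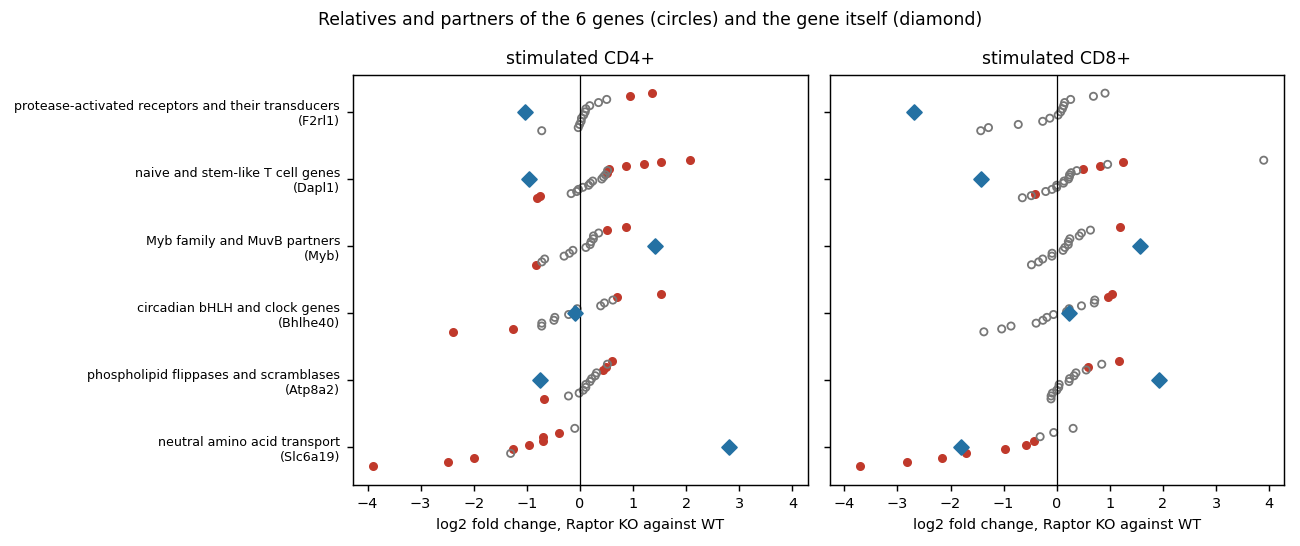
Log2 fold change of Raptor KO against WT (horizontal axis) in stimulated CD4+ and CD8+ cells for the genes listed beside each of the 6 (circles, filled red where the adjusted p is under 0.05), and for the gene itself (blue diamond). The amino acid carriers lie mostly below 0 (8 and 7 of 10 called lower), while in CD8+ cells Myb lies above every gene of its list and Dapl1 and F2rl1 lie below every gene of theirs.

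Of 19 naive and stem-like T cell genes listed beside Dapl1, all tested, 6 rose and 2 fell in stimulated Raptor KO CD4+ cells and 3 rose and 1 fell in CD8+ cells, where Dapl1 was lower. With Rn45s kept in the totals the counts were 2 and 0. Slfn2, a quiescence factor, rose from 36.9 ± 9.21 to 88.0 ± 17.6 CPM in CD8+ cells (1.25 ± 0.18, adjusted p = 2.79e-06), and Bach2 rose by 0.82 ± 0.18 (adjusted p = 0.00238). Klf2, which maintains lymph node homing, rose by 2.08 ± 0.50 in CD4+ cells (adjusted p = 0.00564), a call lost without WT CD4+ replicate 3 (1.40, adjusted p = 0.0546). Leaving out single libraries brought the CD4+ count from 8 to between 3 and 7 and the CD8+ count from 4 to between 2 and 5. At rest, Ccr9, a gut-homing chemokine receptor, was higher in Raptor KO in both subsets, at 48.6 ± 6.34 against 12.3 ± 4.14 CPM in CD4+ (1.95 ± 0.31, adjusted p = 0.00172) and 191 ± 37.0 against 61.9 ± 10.5 in CD8+ cells (1.62 ± 0.24, adjusted p = 0.000255). Il7r, the IL-7 receptor chain, was lower in resting Raptor KO CD8+ cells by a log2 change of -1.48 ± 0.35 (adjusted p = 0.0456), a call lost when any 1 of the 6 libraries was left out (adjusted p up to 0.198).

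Of 15 receptors, G proteins and effectors listed beside F2rl1, 13 were tested. F2r, the thrombin receptor PAR1, rose from 11.5 ± 3.16 to 30.0 ± 10.0 CPM in stimulated Raptor KO CD4+ cells (1.36 ± 0.29, adjusted p = 0.00088), and Plcb2 rose by 0.94 ± 0.28 (adjusted p = 0.0155), the second call being lost without WT replicate 3 or Raptor KO replicate 1 or 2 (adjusted p up to 0.148). Without the libraries of code StP212 the F2r call was lost (adjusted p = 0.0699). In stimulated CD8+ cells edgeR and limma-voom called 0 of the 13 and DESeq2 1 (4 at an unadjusted p under 0.05), and at rest the 3 tools called 0 in either subset (0 at an unadjusted p under 0.05). With Rn45s kept in the totals, the calls of all the rising genes named here for stimulated cells were lost, as was that of Plscr1, which fell (adjusted p = 0.0573), while those of Slc6a9, Slc1a4, Ciart and E2f4 held.

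In Rictor KO against WT, 1 gene over the 6 lists passed by edgeR: Il6ra, of the naive list, was higher by 1.14 ± 0.24 (adjusted p = 0.0213). That call was lost without WT replicate 1 or 2, or Rictor KO replicate 2 or 3, each of which left 0 calls in the list. DESeq2 also called 1 gene of the naive list, while limma-voom and a fit of the compared groups only called 0 there and 1 in the amino acid list, and the naive count within code StP219 was 0. Il6ra was named after its value was seen.

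The genes most like each of the 6 over the 9 group means of log2 CPM were ranked among 6725 protein-coding genes with a mean of at least 10 CPM. The 9 points share libraries and depth, and the values are a description. Kcna2, a potassium channel, was most like Slc6a19 (r = 0.954), followed by Slc25a51 and Mrpl24. Patz1 was most like Atp8a2 (0.99), followed by Flcn, which encodes folliculin, a regulator of mTORC1 (0.944), and Phf12. Nlgn2 was most like Bhlhe40 (0.985), and Washc5 was among the 3 most like it. For Myb the closest were Stat6 (0.882), Cep57 and Zfp513, for Dapl1 Trim59 (0.965), Poglut1 and Chp1, and for F2rl1 Arhgef6 (0.93), Tent5a and Rab8a. By Spearman's rank correlation, Nlgn2 and Trim59 were again first, and the closest genes of Slc6a19, Atp8a2, Myb and F2rl1 were others.

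**Figure D5:**
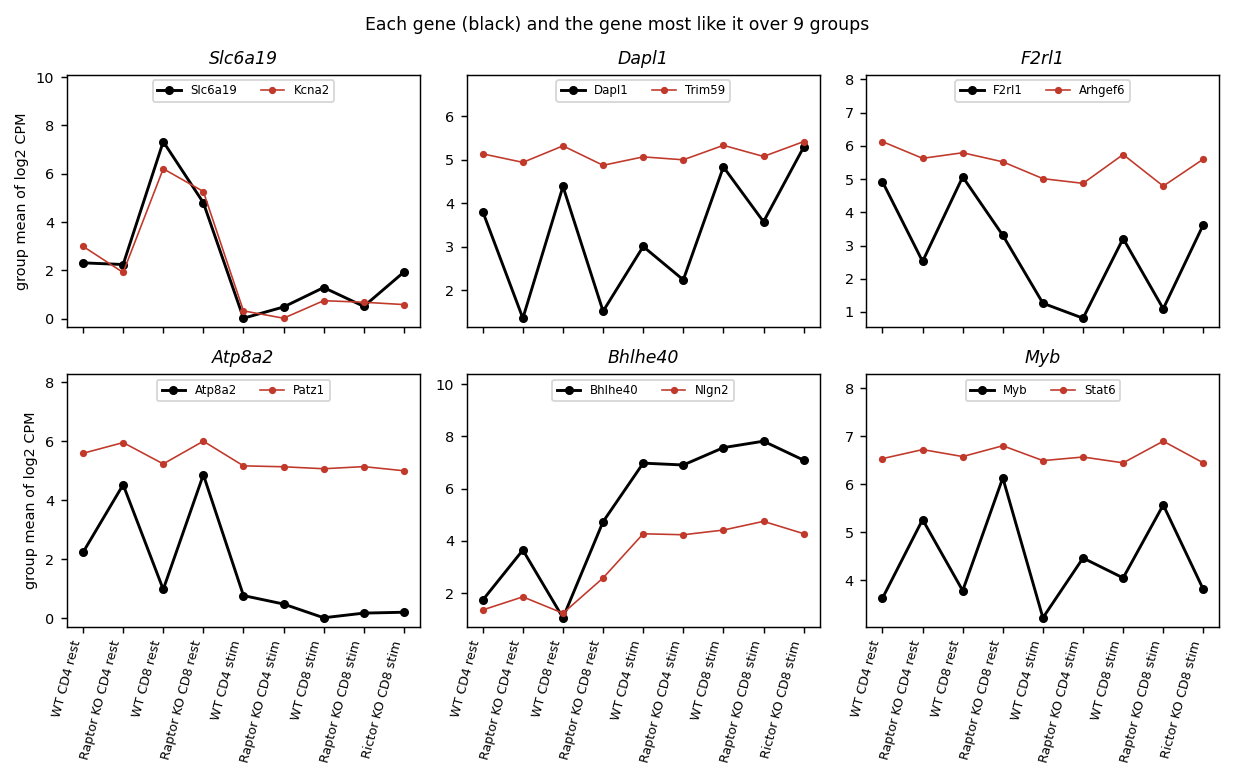
Group means of log2 CPM (vertical axis, prior count 2) over the 9 groups for each gene (black) and the gene with the highest Pearson r to it (red). Kcna2 spans a range close to that of Slc6a19, while the other 5 genes follow at a smaller range.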

How the data were processed

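RNA from 27 libraries of mouse T cells, 3 in each of 9 groups, was sequenced. The deposited values are raw read counts per Ensembl gene, which the authors gave as 1 table. Per the submitters' processing notes the aligner was STAR 2.6.0a and the genome GRCm38. How reads were assigned to genes (program, annotation, strand) is not given in the sources used. Of 26801 genes, 26753 were matched to GENCODE by gene ID. Rn45s was left out, genes were filtered with filterByExpr (minimum count 10, minimum total 15), which kept 10493, and counts were scaled by TMM. 1 mean per group was fitted with edgeR 4.0.16 (R 4.3.3, quasi-likelihood, robust), with Benjamini-Hochberg adjusted p under 0.05 as a call. DESeq2 1.42.0, limma 3.58.1 (voom), other scalings and filters and leaving out each library were alternatives. The alternative with Rn45s kept in the totals used no TMM factors. The 95% intervals are from the SE, and counting intervals and floors of 3 counts cover counting error only. The 6 genes and the gene lists were chosen with earlier results of these data known. From each list, genes called at rest and the 2 called genes with the largest change in each stimulated Raptor KO comparison were eligible for naming, and for each of the 6 the 3 genes most like it, of which 1 is not reported here. Replicate libraries all differed by more than sampling noise. Same-numbered libraries correlated at -0.178 to 0.367, so numbers were not taken to pair samples.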

Additional observations from a re-analysis of the deposited data

How the results depend on the processing

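The calls of Dapl1 and F2rl1 in stimulated Raptor KO CD8+ cells, and of Dapl1, F2rl1 and Myb between Rictor KO and Raptor KO, kept their direction and side of the threshold in every setting run for them. The number of the 6 genes called in stimulated WT CD8+ against CD4+ cells went from 3 to 5 with no filter on low counts. For Raptor KO against WT in stimulated CD4+ cells it went from 1 to 0 with a minimum fold change of 1.5, and from 1 to 2 on leaving out single libraries. For CD8+ against CD4+ cells in stimulated Raptor KO it went from 2 to 0 with that minimum, 0 with Rn45s kept, 1 with limma-voom, 0 without the libraries of code StP212 (a setting chosen after seeing the data), and 0 to 2 on leaving out single libraries.

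With Rn45s kept and no TMM factors, the sign turned for Bhlhe40 in stimulated Raptor KO CD8+ cells (-0.27), Slc6a19 in CD8+ against CD4+ stimulated Raptor KO (0.00593), Myb (-0.31) and F2rl1 (-0.26) in CD8+ against CD4+ resting WT, and Atp8a2 (-0.029) and Dapl1 (-0.052) in resting Raptor KO. The cause was not tested. On leaving out single libraries, values ran from -0.77 to 0.14 for Slc6a19 in resting CD4+ cells, -0.31 to 0.051 for Bhlhe40 in stimulated CD4+ cells, and -0.027 to 0.48 for the difference of the Myb effects between subsets, which was -0.30 without code StP212. For Atp8a2, with 0 or 1 count a group in stimulated CD8+ cells, they ran from 0 to 2.38 (Raptor KO against WT), 0 to 1.99 (Rictor KO against WT) and -1.92 to 1.47 (Rictor KO against Raptor KO), and from -0.073 to 0.74 between resting Raptor KO subsets. They ran from -0.24 to 0.54 for Dapl1 in resting and -0.72 to 0.68 for Slc6a19 in stimulated Raptor KO subsets. These settings have fewer samples by construction.

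With a minimum fold change of 1.5, counts over all genes went from 1823 to 242 for Raptor KO in stimulated CD4+ and from 1230 to 237 in CD8+ cells, from 1606 to 358 between Rictor KO and Raptor KO, from 17 to 0 between Rictor KO and WT, from 544 to 171 and 562 to 173 between WT and Raptor KO subsets, and from 35 to 3 for the interaction. Without code StP212 they were 920, 572, 1029, 1, 226, 244 and 2 in the same order. At rest, 15 (CD4+) and 118 (CD8+) became 34 and 197 with the replicate block and 5 and 19 with that minimum, and the interaction count became 75 with the block. Of all genes tested, 925 higher and 898 lower in stimulated CD4+ Raptor KO became 67 and 617 with Rn45s kept, and 661 and 569 in CD8+ cells became 55 and 404. With the replicate block, Myb between stimulated WT subsets (0.97, adjusted p = 0.0421) and Bhlhe40 between stimulated Raptor KO subsets (0.92, adjusted p = 0.0226) were called, and no other call on the 6 genes changed. Low counts limit Slc6a19, Atp8a2 and CD4+ F2rl1 in stimulated cells.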
